A study of Rattus norvegicus with 8 samples.

Results

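Potassium channel genes were taken as all rat genes whose symbol begins with Kcn, followed by a family letter or letters and a number, and whose RefSeq accession is that of a probe on the array. The gene table holds 96 such symbols, and 90 of them were matched by 128 of the 45598 probes. A probe was kept when the scanner software marked it, in 1 or more groups, as well above background on each of the 2 arrays. This left 75 probes of 60 genes. The probe of highest mean signal stands for a gene, so that the 60 genes are part of 25078 features measured in all, 12715 of them with a gene symbol. Symbols to which no probe was matched included Kcnd2l1, Kcnk7, Kcnu1 and the pseudogenes Kcnk16-ps1 and Kcnk6-ps1.

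Potassium channels are membrane proteins that let potassium ions cross along their gradient and so hold the membrane potential of a cell negative. Voltage-gated channels open on depolarisation and are tuned by accessory subunits, inward rectifiers pass current best near the resting potential, two-pore channels carry background leak, and calcium-activated channels couple the membrane potential to the calcium level inside the cell. In lung these channels restrain contraction of airway and pulmonary artery smooth muscle, provide the driving force for chloride and fluid transport across airway and alveolar epithelium, and sustain calcium entry into lymphocytes.

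RNA came from 30 mg of male rat lung per sample, and 200 ng of it was labelled with Cy3 for a 1-colour array. EV rats breathed cigarette smoke for 12 weeks and in week 13 received, into the trachea, the extracellular vesicles isolated from about 2500000 mesenchymal stem cells of human umbilical cord. MSC rats had the same 12 weeks of smoke and received about 2500000 of the cells themselves by the same route in week 13. Smoke rats had the 12 weeks of smoke and no treatment, and naive rats breathed normal air. Each group has 2 samples, 8 in all. The labels used here give no strain or age, and they do not say that the 2 samples of a group come from different animals. The p-values then cover only the spread between the samples at hand, which may be technical. Whole lung was measured, so fewer cells of a type and less RNA per cell cannot be told apart.

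The level of a gene is the log2 of its processed signal minus the log2 of the 75th percentile of signal on its array, and a value of 0 is that percentile. The percentile itself was 762 and 483 on the EV arrays, 246 and 256 on the MSC arrays, 3235 and 2677 on the smoke arrays and 568 and 362 on the naive arrays. The E1A spike-in control probes had 0.839 times the signal in smoke that they had in naive, while the percentile was 6.49 times that in naive. Differences below are on the percentile scale. For the leading genes the difference relative to the median of all 25078 features is given too, which is the same under percentile and spike-in scaling. That median was -0.60 for smoke against naive, 0.54 for EV against smoke, 0.71 for MSC against smoke and -0.27 for EV against MSC on the percentile scale. After spike-in scaling it was 2.35, -1.94, -3.30 and 1.27 in the same 4 comparisons. Between 48.0% and 71.2% of all probes were well above background on an array. The 2 arrays of a group correlated at 0.94 for EV, 0.89 for MSC, 0.97 for smoke and 0.92 for naive across the 60 genes, which are not independent replicates. All 8 alveolar epithelium markers on the array were measured in every group, with summed levels of 1129 to 1334 times the percentile in EV, 843 to 1736 in MSC, 511 to 543 in smoke and 1349 to 1636 in naive.

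Heart muscle markers separated 2 arrays from the rest. EV replicate 1 and MSC replicate 2 had high signal for 6 of 6 measured genes of heart muscle (Myh6, Tnnt2, Tnni3, Myl7, Actc1 and Myl4), which are also known from the muscle sleeve of the pulmonary veins. Their summed level was 2.38 to 32.9 in EV, 3.48 to 75.3 in MSC, 1.37 to 1.54 in smoke and 2.15 to 2.55 in naive. For some genes, results are given with and without these 2 arrays below. For others, such as Kcnj11 in EV and Kcna2, Kcng2 and Kcnn4 in MSC, they are given with them only.

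Of the 90 genes, 60 passed the detection filter, 13 were well above background on no array, and the other 17 were so on some arrays but not as the filter asks. By family, 23 of 39 voltage-gated pore and modulatory genes were kept, 9 of 12 accessory genes (Kcnab, Kcne and Kcnip), 11 of 15 inward rectifiers, 8 of 13 two-pore genes and 9 of 11 calcium-activated genes. The calcium-activated family here counts Kcnt1 and Kcnt2 as relatives. On all 8 arrays, 14 voltage-gated, 4 accessory, 5 inward rectifier, 7 two-pore and 5 calcium-activated genes were detected, 35 in all. Another 11 genes passed through 1 group alone: Kcna2 and Kcng3 through EV, Kcnj11 through MSC, and Kcnd1, Kcng4, Kcnj2, Kcnj13, Kcnmb3, Kcnn1, Kcns1 and Kcnt1 through smoke. Such a gene tends to be high in the group that let it in. Smoke arrays had the widest range below the percentile, since the dimmest probe well above background stood at -8.22 and -7.01 there, against -6.33 and -4.70 on the naive arrays.

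Just inside the filter, Kcnn1, a small-conductance calcium-activated channel, was well above background on both smoke arrays, at levels of -6.11 and -5.30, and on EV replicate 1. Just outside it, Kcnip4, a calcium-binding accessory protein of A-type channels, was detected on smoke replicate 1 at -6.48 and on EV replicate 2 at -5.12. Kcna5, a delayed rectifier of pulmonary artery smooth muscle, was detected on smoke replicate 1 alone and is not described further. Kcns2, a silent modulatory subunit, was detected on 4 arrays but had only outlier spots on EV replicate 2. The other genes without a kept probe included Kcna1, Kcna4, Kcna10, Kcnc1, Kcnc2, Kcnc4, Kcnd2, Kcnf1, Kcnh5, Kcnh7, Kcnh8, Kcnq5 and Kcnv1 among the voltage-gated genes, Kcnab3 and Kcne4 among the accessory genes, Kcnj1, Kcnj6, Kcnj10 and Kcnj16 among the inward rectifiers, Kcnk4, Kcnk9, Kcnk10, Kcnk15 and Kcnk18 among the two-pore genes, and Kcnn2 and Kcnt2 among the calcium-activated genes.

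**Figure D1:**
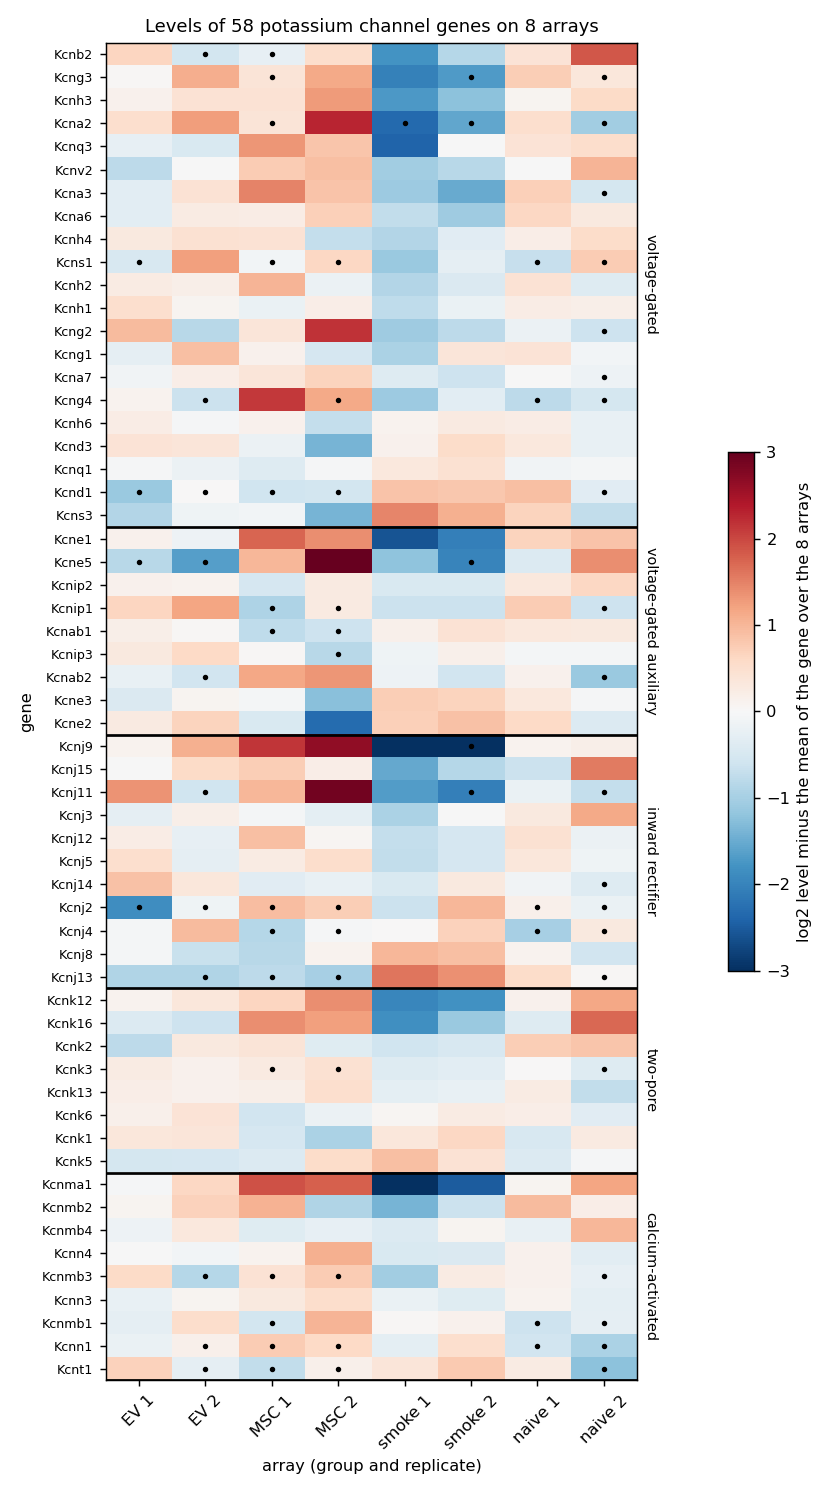
Levels of 58 of the 60 kept potassium channel genes (rows, by family and, within a family, by smoke minus naive difference) on the 8 arrays (columns, EV, MSC, smoke and naive). Colour is the log2 level minus the mean of the same gene over the 8 arrays, from -3 (blue) to 3 (red), and a black dot marks a spot that was not well above background. The smoke columns hold the deepest blue for Kcnma1, Kcnj9 and Kcne1 on the percentile scale.

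Promoter sequence is shown for 4 genes whose levels differed in the same arrays, 3 of them low and 1 high in smoke on the percentile scale. Of the 60 kept genes, 40 were matched in the RefSeq table of promoters of assembly GRCr8, fewer than 80%, so that a comparison of base content or motifs over the set is void and none is made. Each sequence is the 250 bases before the annotated start, 5′ to 3′ on the strand of the gene. Capitals mark the GC box GGGCGG (bound by Sp1-type factors), the core GCGTG of the xenobiotic response element or the TATA box TATAAA, each searched on both strands with overlapping matches counted.
Kcnma1, chr15:351675-351924, plus strand: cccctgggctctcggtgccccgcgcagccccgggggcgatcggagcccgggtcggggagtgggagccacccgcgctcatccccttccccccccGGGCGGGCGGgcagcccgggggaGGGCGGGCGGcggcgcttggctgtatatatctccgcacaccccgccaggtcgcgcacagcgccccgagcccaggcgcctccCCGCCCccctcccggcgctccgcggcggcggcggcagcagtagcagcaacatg
Kcnj9, chr13:87320294-87320543, minus strand: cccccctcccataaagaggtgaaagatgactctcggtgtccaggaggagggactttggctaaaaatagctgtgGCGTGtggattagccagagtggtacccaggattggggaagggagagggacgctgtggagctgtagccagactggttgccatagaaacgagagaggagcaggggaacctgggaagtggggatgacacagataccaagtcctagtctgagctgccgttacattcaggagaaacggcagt
Kcne1, chr11:45077034-45077283, minus strand: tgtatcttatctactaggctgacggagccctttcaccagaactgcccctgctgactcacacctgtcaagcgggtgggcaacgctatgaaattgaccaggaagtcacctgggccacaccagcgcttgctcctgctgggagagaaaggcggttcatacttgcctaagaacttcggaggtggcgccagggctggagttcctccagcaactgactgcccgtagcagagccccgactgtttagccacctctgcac
Kcnj13, chr9:95518987-95519236, minus strand: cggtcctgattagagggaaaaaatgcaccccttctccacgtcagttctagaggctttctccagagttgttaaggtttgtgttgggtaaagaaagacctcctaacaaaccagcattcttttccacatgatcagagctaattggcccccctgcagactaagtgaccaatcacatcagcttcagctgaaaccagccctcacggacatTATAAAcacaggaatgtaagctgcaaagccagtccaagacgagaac
The Kcnma1 window had 79.6% G and C, 33 CpG and 5 GC boxes, some of which share bases. Kcnj9 had 54.8% G and C and 1 GCGTG, Kcne1 had 57.6% and no match to the 3 motifs in these letters, and Kcnj13 had 46.8% and 1 TATAAA. Over all 33469 promoters of the table, cut to the same window, the median was 51.2% G and C, 30.5% held a GC box, 25.9% a GCGTG and 12.9% a TATAAA. A match is a description of the letters only.

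Smoke lungs were first set against naive lungs, the comparison that asks what smoke exposure alone does. Relative to the 75th percentile of each array, 13 potassium channel genes fell in smoke lungs and 1 rose, of 60. The genes with the largest falls were Kcnma1, the pore of the large-conductance calcium-activated channel, Kcnj9, a subunit of G protein-gated inward rectifiers, and Kcne1, an accessory subunit of Kcnq1. The gene that rose was Kcnj13, an inward rectifier of transporting epithelia. The 14 calls are 23.3% of the 60 genes (limma, adjusted p under 0.05), against 47.4% of all 25078 features, so the share of calls was no higher than over the array as a whole. Falls made up 21.7% of the genes against 35% of all features, and rises 1.67% against 12.4%. After spike-in scaling 48 genes were called higher and 0 lower, and the median of all features turned positive too. The direction of these counts thus depends on the scaling. Counts under alternatives, here and below, stand without the share of all features called under the same setting. They are not read as results about these genes. The median difference of the 60 genes was -0.49, close to the -0.60 of all features. Both smoke arrays lay below the other 6 arrays for 21 of the 60 genes (35%, against 45.5% of all features) and above them for 6 (10%, against 18.1%). Both MSC arrays lay above the other 6 for 12 genes (20%, against 25.9%) and below them for 3 (5%, against 9.42%), which were Kcnab1, Kcne2 and Kcnk1. Both EV arrays were lowest for Kcnk5 (1.67%, against 1.99%) and highest for Kcnip3 and Kcnj14 (3.33%, against 2.83%). Both naive arrays were lowest for Kcnn1 (1.67%, against 1.26%) and highest for Kcnip2, Kcnj3 and Kcnk2 (5%, against 2.12%). Some of these ranks rest on values not well above background, such as Kcnab1 on the MSC arrays and Kcnn1 on the MSC and naive arrays. Kcnn1 was kept through the smoke group alone.

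Kcnma1, which repolarises smooth muscle after calcium rises and is also found in airway epithelium, had levels of -4.13 and -3.53 in smoke lungs, against -0.96 and 0.15 in naive lungs. Both smoke arrays were below every other array, and the groups did not overlap. The difference was -3.43 ± 0.44 (SE, n = 2 each; 10.7-fold lower; limma adjusted p = 0.00232), or -2.82 relative to the median of all features. Its smooth muscle partner Kcnmb1, the beta subunit that raises calcium sensitivity, was not called, with -5.27 and -5.19 in smoke and -5.92 and -5.58 in naive, where it was not well above background. The accessory genes Kcnmb2 and Kcnmb4 were not called either. Before scaling, the signal of Kcnma1 was 185 and 231 on the smoke arrays and 293 and 401 on the naive arrays. Over all 8 arrays it stayed within a 2.41-fold range, from 185 to 447, while the percentile ran from 246 to 3235. A second Kcnma1 probe was well above background on none of the 8 arrays, so the Kcnma1 values rest on 1 probe.

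Kcnj9, best known from brain, had levels of -7.50 and -7.41 in smoke lungs, where it was well above background on 1 of 2 arrays, against -4.21 and -4.14 in naive lungs. The groups were far apart compared with their spread. It fell by 3.27 ± 0.38 (SE; limma adjusted p = 0.00218), or -2.67 relative to the median of all features. Its partner subunits Kcnj3 and Kcnj5 had levels of -3.84 and -2.92 and of -3.41 and -3.19 in smoke, against -2.61 and -1.76 and -2.34 and -2.81 in naive, and were not called (limma adjusted p = 0.0525 and 0.126).

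Kcne1 had levels of -7.04 and -6.51 in smoke lungs and -3.78 and -3.59 in naive lungs. Its difference was -3.09 ± 0.31 (SE; limma adjusted p = 0.00218), or -2.49 relative to the median, with no overlap between the groups. The pore it joins, Kcnq1, a voltage-gated channel of airway epithelium and heart, had 1.00 and 1.13 in smoke and 0.58 and 0.62 in naive and was not called (difference 0.47 ± 0.27, limma adjusted p = 0.183). Kcne2, another accessory subunit of Kcnq1, was not called at 0.70 ± 0.61, nor was Kcne3, which holds Kcnq1 open in epithelia, at 0.55 ± 0.43. In this comparison the accessory genes thus had values on both sides of 0, and 1 of 9 passed the test.

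Kcnma1, Kcnj9 and Kcne1 were also the 3 genes of 60 whose signal before scaling was lower in smoke than in naive, at 0.604, 0.671 and 0.761 times. The other 57 were brighter in smoke, as were 23790 of 25078 features, with a median ratio of 4.62 for the 60 genes and 4.27 for all features. Relative to the spike-in controls the 3 differences were not called (limma adjusted p = 0.367, 0.564 and 0.806). Of 96 control probes for synthetic RNA that are not rat sequence, 5 stood well above background in naive. On the percentile scale these 5 were lower in smoke, on each array, by a median of -2.98 log2. The part of such a shift in the differences of the rat genes was not tested.

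**Figure D2:**
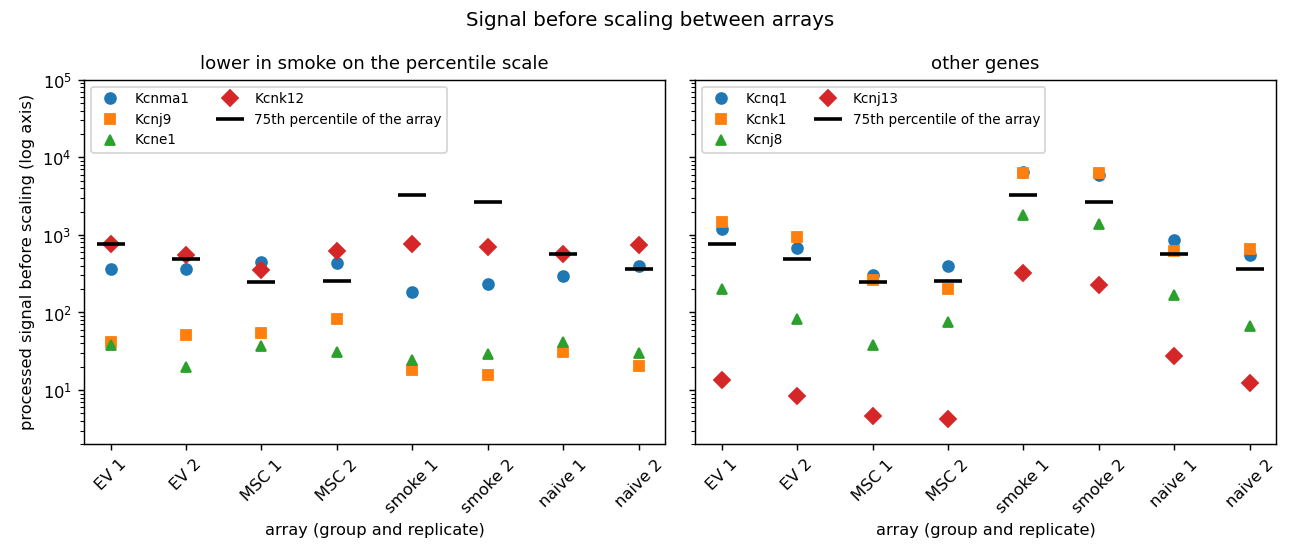
Processed signal before any scaling between arrays (log axis) on the 8 arrays, for 4 potassium channel genes that were lower in smoke on the percentile scale (left) and 4 others (right). Black bars give the 75th percentile of each array. Points of different genes come from different probes and are to be read across arrays only. Kcnma1, Kcne1 and Kcnk12 stayed within 2.41-fold, 2.09-fold and 2.19-fold over all arrays, while the percentile and the genes on the right were highest on the smoke arrays.

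Among the two-pore genes, 3 of 8 fell in smoke on the percentile scale and none rose, by the brighter probe of each gene. With each probe as a feature, second probes of Kcnk1 and Kcnk6 were called at 2.18 and -1.41 (limma adjusted p = 0.00877 and 0.0257). The brighter probes of these genes were at 0.58 and 0.22 and were not called. Kcnk12, a poorly conducting member of the halothane-inhibited group, had levels of -2.07 and -1.93 in smoke and 0.01 and 1.05 in naive. Kcnk16, known from pancreatic islets, fell by 2.15, with -6.71 and -5.98 in smoke and -5.24 and -3.14 in naive. Its naive arrays lay far apart, and the lower of them was near the smoke values. The difference of Kcnk12 was -2.53 ± 0.42 (SE; limma adjusted p = 0.00392), and under spike-in scaling it was 0.42 and not called. Kcnk2, a channel opened by stretch, arachidonic acid and anaesthetics, had -1.56 and -1.45 in smoke and -0.22 and -0.14 in naive, with no overlap. It fell by 1.32 ± 0.42 (limma adjusted p = 0.0352), its second probe by 2.82, and the call turned to 1.63 higher under spike-in scaling and was lost when any 1 smoke or naive array was left out. Kcnk3, the acid-sensitive background channel of pulmonary artery smooth muscle, showed -5.92 and -5.85 in smoke and -5.52 and -5.91 in naive. Those values overlap, and the gene was not called (difference -0.18 ± 0.28).

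Among the 23 voltage-gated genes, 7 fell in smoke on the percentile scale and none rose, with a median difference of -0.70. They included Kcnb2, Kcng3, Kcnh3, Kcnv2, Kcna3 and Kcna6. Kcnb2, a slow delayed rectifier, had levels of -7.09 and -6.16 in smoke and -4.90 and -3.43 in naive. It fell by 2.46 ± 0.63 (limma adjusted p = 0.0164), a call lost without naive replicate 2 (-1.73) or smoke replicate 1, and stood 0.49 higher under spike-in scaling.

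Kcng3 and Kcnv2 code for subunits that form no channel alone and modify the Kcnb class. Kcng3 fell by 2.42 ± 0.44 and Kcnv2 by 1.43 ± 0.42. Kcng3 was well above background on 1 of 2 smoke arrays and 1 of 2 naive arrays. Its signal before scaling was 22.5 and 23.6 in smoke and 27.3 and 13.2 in naive. Kcnh3, a member of the ether-a-go-go class that is best known from brain, had levels of -2.94 and -2.45 in smoke and -1.15 and -0.66 in naive, and its 2 probes differed by -1.79 and -1.58.

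Kcna3, the voltage-gated channel of T cells, had levels of -5.30 and -5.73 in smoke and -3.50 and -4.75 in naive, where it was well above background on 1 of 2 arrays. The difference of -1.39 ± 0.49 was barely under the threshold (limma adjusted p = 0.0491, 6.78e-06 to 0.316 over the alternatives) and was -0.77 without naive replicate 1 and 1.56 higher under spike-in scaling. Kcnn4, the calcium-activated channel that works beside it in activated T cells, was at -2.07 and -2.05 in smoke and -1.49 and -1.92 in naive and was not called. Summed T cell markers were at 1.26 to 2.11 times the percentile in smoke and 2.17 to 2.38 in naive, but of the 6 markers 1 rose and 2 fell, and their median difference was 1.04. Whether T cell number plays a part in the Kcna3 values was not tested.

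Of the 11 inward rectifiers, Kcnj13 rose, Kcnj9 fell and 9 were not called. Kcnj13 had levels of -3.33 and -3.57 in smoke and -4.38 and -4.89 in naive, where it was well above background on 1 of 2 arrays. It rose by 1.19 ± 0.29 (limma adjusted p = 0.0146), or 1.79 relative to the median of all features. Kcnj13 entered the table through the smoke group alone, so that high smoke values are part of how it was kept, here and in the comparisons of EV and MSC with smoke. With normexp background correction its difference was -0.54, not called, and the call was lost without naive replicate 2 (0.93) or smoke replicate 1 (1.07). Kcnj8, the pore of the ATP-sensitive channel of vascular smooth muscle and pericytes, had -0.86 and -0.95 in smoke and -1.74 and -2.43 in naive, with no overlap. Its difference of 1.18 ± 0.42 missed the threshold (limma adjusted p = 0.0509, 5.74e-05 to 0.222 over the alternatives).

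Abcc9, the sulphonylurea receptor that joins Kcnj8, rose by 1.91 in smoke (limma adjusted p = 0.0132). The pericyte markers Rgs5 and Ndufa4l2 rose by 1.87 and 3.22, 2 of 6 pericyte markers with none lower, while the summed level of the 6 was 5.31 to 7.16 in smoke and 5.67 to 8.35 in naive. The part of pericyte number in the values of Kcnj8 was not tested. Kcnj2, the classical strong inward rectifier, and Kcnj15, known from gastric acid secretion, were not called at 0.20 ± 0.67 and -1.66 ± 0.68. Kcnj2 was well above background on the smoke arrays alone and was kept through them, so its difference sets a signal against background.

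Genes that work with potassium channels were read from 3 lists. Of 8 measured channel partners (subunits of other classes and pacemaker channels), 1 rose in smoke and 4 fell. Hcn3 and Hcn4, pacemaker channels, fell by 1.54 and 1.62, and Lrrc38, an accessory protein of the Kcnma1 channel, by 1.38. Of 18 measured genes of epithelial ion transport, 5 rose and 3 fell. The epithelial sodium channel subunits Scnn1a and Scnn1b rose by 1.67 and 2.36, while Atp12a, a proton-potassium pump of the airway surface, fell by 3.10 and Ano1, a calcium-activated chloride channel, by 1.26. Of 13 measured genes of smooth muscle excitation, 2 rose and 3 fell. Orai1, the pore of store-operated calcium entry, rose by 2.95, and Itpr1, a calcium release channel, fell by 1.57. Shares called were 62.5%, 44.4% and 38.5% for the 3 lists, against 47.4% of all features. Median differences of the lists were -1.03, 0.50 and -0.34.

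**Figure D3:**
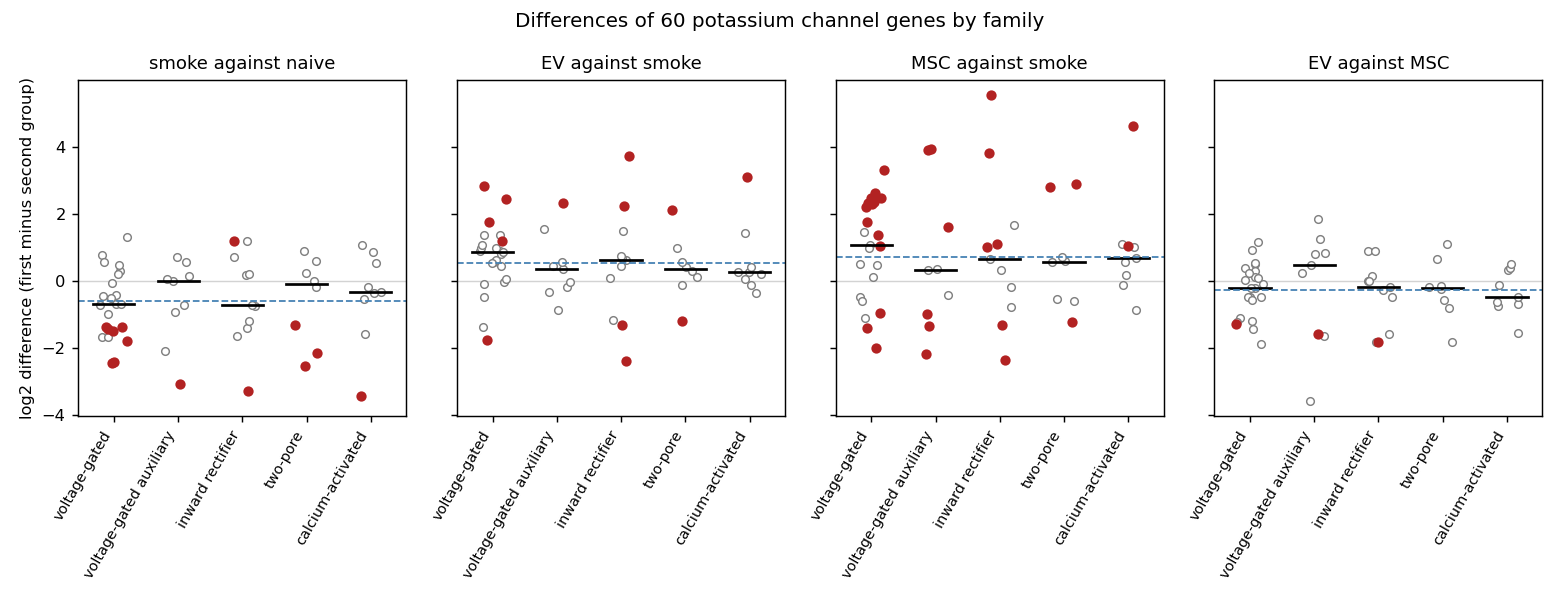
Log2 difference of each of the 60 kept genes (points, first minus second group) by family in 4 comparisons. Red points passed the test (limma, adjusted p under 0.05), open points did not, black bars are family medians and the dashed line is the median of all 25078 features. In smoke against naive the family medians lie between -0.72 and 0.01, around the -0.60 of all features, and that line turns to 2.35 under spike-in scaling.

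EV lungs were then set against smoke lungs, the comparison that asks what the vesicles change after smoke. The smoke arrays are the same as in the comparison above, so a gene low there enters both, and the 2 sets of values are given side by side only. Of 60 genes, 9 rose and 4 fell in EV lungs relative to the percentile. The genes that rose included Kcnj9, Kcnma1, Kcna2, Kcng3, Kcne1, Kcnj11, Kcnk12 and Kcnh3, and those that fell were Kcnj13, Kcns3, Kcnj8 and Kcnk5. Kcnj11 had -4.27 on EV replicate 1, the array with heart muscle signal. On EV replicate 2 it had -6.21 and was not well above background. The 13 calls are 21.7% of the genes, against 39.6% of all features. Rises were 15% against 29.4%, and falls 6.67% against 10.2%. After spike-in scaling 1 gene was called higher and 46 lower. By family 4 voltage-gated genes rose and 1 fell, 1 accessory gene rose, 2 inward rectifiers rose and 2 fell, 1 two-pore gene rose and 1 fell, and 1 calcium-activated gene rose.

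Kcnj9 had levels of -4.21 and -3.25 in EV lungs, against -7.50 and -7.41 in smoke lungs, where 1 of 2 arrays was well above background. It rose by 3.72 ± 0.38 (SE; limma adjusted p = 0.00305), or 3.19 relative to the median of all features. Kcnma1 had -1.07 and -0.43 in EV and -4.13 and -3.53 in smoke. It was 3.08 ± 0.44 higher (limma adjusted p = 0.00449), and 0.61 higher and not called under spike-in scaling. Kcne1 had -4.33 and -4.61 in EV and -7.04 and -6.51 in smoke, a rise of 2.31 ± 0.31 that was -0.16 and not called under spike-in scaling. In all 3 genes both EV arrays lay above both smoke arrays on the percentile scale.

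Kcna2, a Shaker-class delayed rectifier, was well above background on both EV arrays, at -5.08 and -4.33, and on neither smoke array. Its EV level was at least 6.75-fold higher on the percentile scale (measured means -4.70 in EV and -7.52 in smoke; limma adjusted p = 0.021). This bound sets the mean over both arrays of the brighter group against, per array, the higher of the signal of the probe and the dimmest signal well above background. Kcng3 had -5.10 and -4.04 in EV and -7.17 and -6.83 in smoke, where it was well above background on 1 of 2 arrays. It rose by 2.43 ± 0.44. Both genes entered the table through the EV group alone, so that high EV values are part of how they were kept.

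The 4 genes that fell stood near the threshold, apart from Kcnj13. Kcnj13 had levels of -5.84 and -5.84 in EV, well above background on 1 of 2 arrays, against -3.33 and -3.57 in smoke. It fell by 2.39 ± 0.29 (limma adjusted p = 0.00397), or -2.93 relative to the median, while normexp background correction left a difference of -0.015 that was not called. Kcns3, a silent modulatory subunit found in pulmonary artery smooth muscle, had -3.70 and -2.95 in EV and -1.37 and -1.75 in smoke (difference -1.76 ± 0.59, limma adjusted p = 0.0478). Kcnj8 had -1.92 and -2.53 in EV and -0.86 and -0.95 in smoke (-1.33 ± 0.42, 0.0405), and Kcnk5, an alkali-activated channel of epithelia, had -1.83 and -1.82 and -0.40 and -0.86 (-1.19 ± 0.39, 0.0426). None of the 3 groups of values overlapped, yet each of the 3 calls was lost when either smoke array or either EV array was left out.

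**Figure D4:**
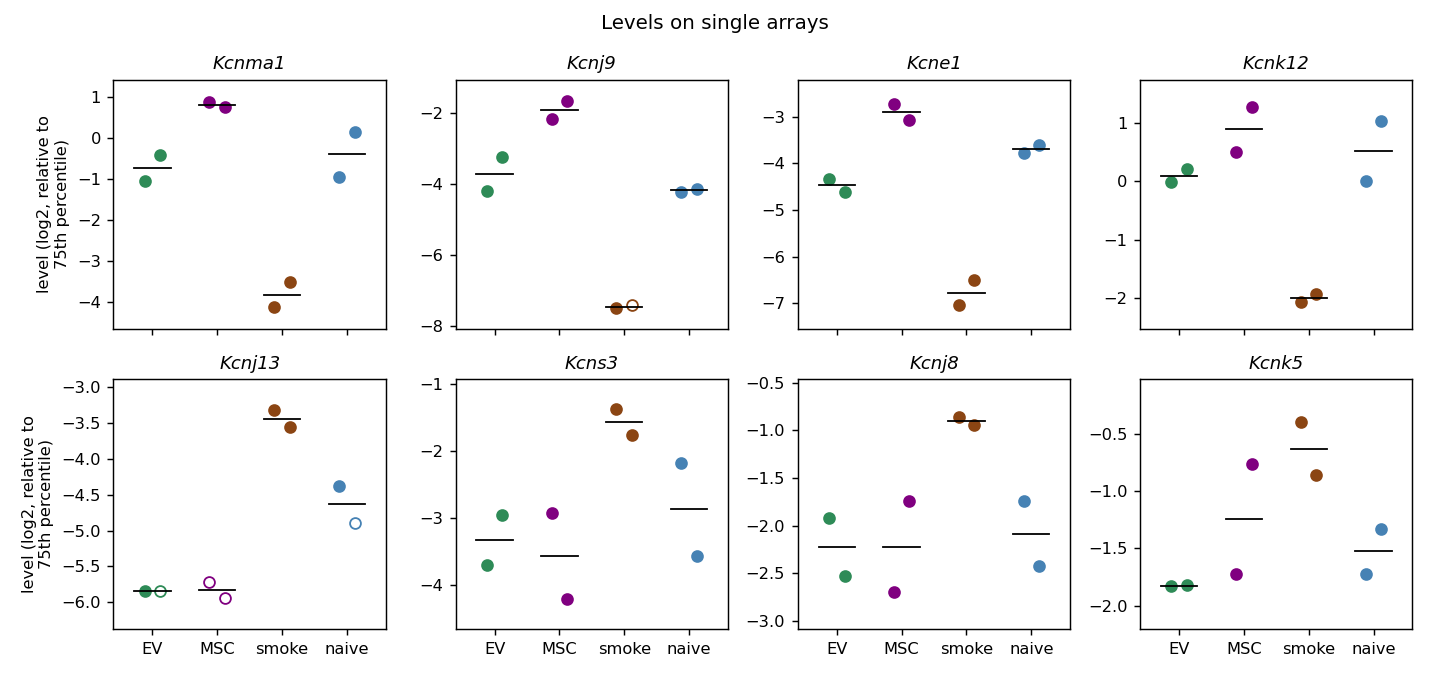
Levels of 8 potassium channel genes on single arrays (filled points, well above background; open points, not), in EV, MSC, smoke and naive lungs, with black bars at the group means. The y axes are log2 levels relative to the 75th percentile of each array. In the upper row both smoke points lie below all others, and in the lower row smoke points are highest for Kcnj13, Kcns3 and Kcnj8, on the percentile scale.

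MSC lungs against smoke lungs gave the most calls, in a comparison that again uses the same smoke arrays. Of 60 genes, 22 rose and 9 fell relative to the percentile, 51.7% in all, against 59.6% of all features. Rises were 36.7% against 42.7%, and falls 15% against 16.8%. After spike-in scaling 1 gene was called higher and 52 lower, and after quantile normalization 9 were higher and 15 lower. Without EV replicate 1 and MSC replicate 2, the arrays with heart muscle signal, 18 rose and 2 fell. By family 11 voltage-gated genes rose and 3 fell, 3 accessory genes rose and 3 fell, 4 inward rectifiers rose and 2 fell, 2 two-pore genes rose and 1 fell, and 2 calcium-activated genes rose.

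Kcnj9 had levels of -2.17 and -1.65 in MSC lungs, against -7.50 and -7.41 in smoke lungs, and Kcnma1 had 0.86 and 0.74 against -4.13 and -3.53. Both MSC arrays were the highest of the 8 for each gene. Kcnj9 rose by 5.54 ± 0.38 (limma adjusted p = 0.00022) and Kcnma1 by 4.63 ± 0.44 (0.000262), or 4.83 and 3.92 relative to the median of all features. Kcnj9 passed the test under all 18 alternatives run for it in this comparison, and Kcnma1 under all of its 19 except spike-in scaling, where it was 0.62 higher. Kcne1, at -2.72 and -3.06 in MSC and -7.04 and -6.51 in smoke, rose by 3.89 ± 0.31 and was at -0.12 under spike-in scaling.

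Heart muscle signal moved with some of the genes that rose. Kcnj11, the pore of the ATP-sensitive channel of heart and beta cells, had levels of -4.61 and -2.71 in MSC lungs, against -7.29 and -7.67 in smoke lungs. Kcne5, an accessory subunit expressed in heart, had -4.77 and -2.08 in MSC and -6.98 and -7.75 in smoke. MSC replicate 2, with the heart muscle signal, was the higher array for both. Kcnj11 rose by 3.82 ± 0.76 (limma adjusted p = 0.00391) and by 2.87 without that array, and Kcne5 rose by 3.94 ± 0.92 (0.00775) and by 2.60 without it, both still called. Each was well above background on 1 of 2 smoke arrays, and Kcnj11 entered the table through the MSC group alone. A second Kcne5 probe, which failed the filter, was at -7.16 and -7.10 in MSC, not well above background on either array. The Kcne5 values thus rest on 1 probe. Kcng2, a silent subunit known from heart, had -2.72 and -4.49 in EV, -3.28 and -1.49 in MSC, -4.71 and -4.43 in smoke and -3.84 and -4.29 in naive. Kcnj11 and Kcng2 were the 2 genes of 60 that stood more than 1 log2 higher on each heart-marked array than on the other array of its group. The share of all features that did so is not given here, and Kcnj11 was not well above background on EV replicate 2. The part of heart muscle in these values was not tested. Kcnip2, the accessory subunit of the heart transient outward channel, did not follow this pattern.

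**Figure D5:**
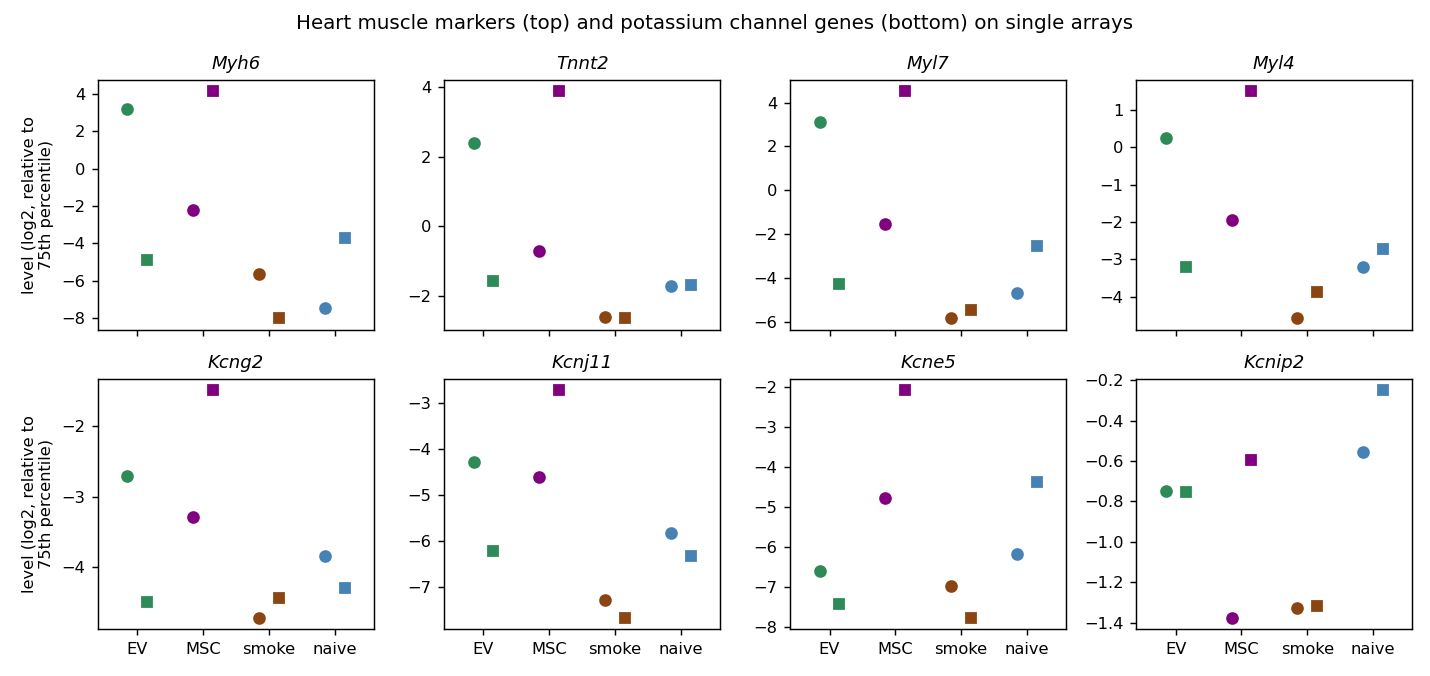
Levels of 4 heart muscle markers (upper row) and 4 potassium channel genes (lower row) on single arrays, with circles for replicate 1 and squares for replicate 2. The y axes are log2 levels relative to the 75th percentile of each array. EV replicate 1 and MSC replicate 2 are the highest arrays for the 4 markers and for Kcng2 and Kcnj11, while Kcnip2 is highest on naive replicate 2.

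Further genes of all 5 families rose in MSC lungs on the percentile scale. Kcnk12 and Kcnk16 rose by 2.90 and 2.79 among the two-pore genes. Among the voltage-gated genes, Kcng3, Kcna3, Kcng4, Kcnh3, Kcnq3, Kcng2, Kcnv2, Kcna6 and Kcna7 rose by 1.02 to 2.63. Kcng3 was well above background on 1 of 2 MSC and 1 of 2 smoke arrays, and Kcng4 on 1 of 2 MSC arrays. Kcna2 was 9.38-fold higher by the bound used above, with -5.18 and -3.28 in MSC and -7.90 and -7.14 in smoke. Only the brighter MSC array and neither smoke array was well above background, so this is not a strict lower limit. Kcna3 had -2.74 and -3.35 in MSC and -5.30 and -5.73 in smoke, with summed T cell markers of 2.90 to 5.80 in MSC and 1.26 to 2.11 in smoke. Of the 6 T cell markers 2 rose and 1 fell in MSC, and their median difference was -0.08. Kcnn4, Kcnj5, Kcnj12 and Kcnab2, an accessory beta subunit, rose by 1.04, 1.01, 1.10 and 1.60. The second probe of Kcnj12 was at -0.59 and not called.

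Genes that fell in MSC lungs included 3 inward rectifier or accessory genes of epithelia. Kcnj13 was not well above background on either MSC array, at -5.71 and -5.94, against -3.33 and -3.57 in smoke. It was at least 2.83-fold lower in MSC (limma adjusted p = 0.000556), but the call reversed with normexp background correction, which gave 0.96 higher (limma adjusted p = 0.00513). Kcne2 had -0.75 and -2.60 in MSC and 0.42 and 0.58 in smoke, a fall of 2.17 ± 0.61 that was -1.25 and not called without MSC replicate 2, and was also lost without either smoke array. Its second probe, at 0.17, was not called. Kcne3, at -3.25 and -4.43 and -2.46 and -2.53, fell by 1.35 ± 0.43 and by 0.76, not called, without MSC replicate 2, and was not called without either smoke array.

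Kcns3 had levels of -2.92 and -4.22 in MSC and -1.37 and -1.75 in smoke. It fell by 2.01 ± 0.59 (limma adjusted p = 0.0206), a call lost without MSC replicate 2 (-1.36) or either smoke array. Kcnj8 fell by 1.32 ± 0.42, and its receptor subunit Abcc9 fell by 1.80 (limma adjusted p = 0.0116). Kcnk1, a weak two-pore channel of epithelia, fell by 1.21. Kcnab1, a beta subunit of Shaker channels, was at least 1.6-fold lower, and Kcnd1, an A-type channel, was called lower with measured means of -7.22 in MSC and -5.82 in smoke but was not well above background on either MSC array, so no fold is given. Kcnd1 was kept through the smoke group alone, and normexp background correction called it 2.18 higher in MSC.

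Channel partners moved in the same comparison, with 6 of 8 higher and 1 lower in MSC lungs. Abcc8, Lrrc38, Hcn3, Hcn4 and Lrrc26 rose by 1.24 to 2.02. In EV lungs 4 of the 8 rose, Abcc8, Lrrc38 and Hcn4 among them, and none fell. Of 18 genes of epithelial ion transport, 3 rose and 8 fell in MSC lungs, and 2 rose and 3 fell in EV lungs. Scnn1a fell by 2.54 in MSC and by 1.10 in EV. Of 13 genes of smooth muscle excitation, 4 rose and 2 fell in MSC, and 3 rose and 1 fell in EV. Orai1 fell by 3.24 in MSC and 3.15 in EV. Shares called were 87.5%, 61.1% and 46.2% for the 3 lists in MSC against smoke, beside 59.6% of all features, and 50%, 27.8% and 30.8% in EV against smoke, beside 39.6%. The medians of the 3 lists in MSC against smoke were 1.78, -0.58 and 0.12, beside 0.71 for all features.

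EV lungs were compared with MSC lungs to ask whether the 2 treatments differ. Of 60 genes, 3 were lower in EV lungs, Kcnj9 and Kcne1 among them, and no gene was called higher. That is 5% of the 60 genes, against 7.16% of all features. Falls were 5% against 5.3%, and rises 0% against 1.85%. Kcnj9 had -4.21 and -3.25 in EV and -2.17 and -1.65 in MSC, a difference of -1.82 ± 0.38 (limma adjusted p = 0.0413, 0.0135 to 0.66 over the alternatives). Kcne1 had -4.33 and -4.61 in EV and -2.72 and -3.06 in MSC (-1.58 ± 0.31, 0.0391, 0.0128 to 0.952). The groups of values did not overlap for either gene. Both calls were lost when either EV, MSC or smoke array was left out, and spike-in scaling called 24 genes, all of them higher in EV. Kcne5, not well above background on either EV array, was at least 6.38-fold lower in EV (measured means -7.01 in EV and -3.43 in MSC) and was not called (limma adjusted p = 0.0558). Its second probe was not well above background on any EV or MSC array.

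Neither treated group had a called gene against naive lungs. In EV against naive limma called 0 of 60 genes, beside 0% of all features, and 4 genes had an unadjusted p under 0.05. They were Kcnj13 (-1.20), Kcnk2 (-1.03), Kcne1 (-0.78) and Kcnj14 (0.85). In MSC against naive limma called 0 of 60 genes, beside 0.00399% of all features, and 12 had an unadjusted p under 0.05. The smallest was that of Kcnj9, at -2.17 and -1.65 in MSC and -4.21 and -4.14 in naive (difference 2.27 ± 0.38, limma adjusted p = 0.0942). Spike-in scaling called 6 genes lower in MSC than in naive. Kcnma1 differed by -0.34 ± 0.44 between EV and naive and by 1.20 ± 0.44 between MSC and naive (limma adjusted p = 0.962 and 0.183). Unadjusted p-values under 0.05 also arise without any effect, and the share of all features under that limit is not given here. The 4 and 12 genes are therefore not read as a result. Values that miss the threshold do not show that treated and naive lungs have the same levels.

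Probes of the same gene were compared where several were kept, which was the case for 15 of the 60 genes. No gene had probes called in opposite directions in any of the 6 comparisons, but often only 1 of the probes was called. In MSC against smoke the second probes of Kcnd3, Kcnh6, Kcnip1, Kcnk2 and Kcnk6 were called higher, at 2.40, 1.15, 3.34, 3.40 and 1.42. That of Kcnip3 was called lower, at -0.98, and the brighter probes of these genes were not called. The reverse held for genes such as Kcne2, Kcnj12 and Kcnn4. Counts of called genes thus depend on which probe is taken. In smoke against naive the probes differed in sign for 8 of the 15, among them Kcnd3, Kcnh6, Kcnip3, Kcnj12, Kcnk6, Kcnk13 and Kcnn4. The spread was widest for Kcnd3, an A-type channel, at -1.85 and 0.30. In MSC against smoke they differed in sign for Kcnd3, Kcne2, Kcnh6, Kcnj12 and Kcnk6. Values given for a gene are those of the brighter probe.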

How the data were processed

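Each of the 8 samples is 1 array on the same slide, where the 2 samples of a group sit in 1 column, and an effect of the column cannot be told apart from that of the group. The deposited intensity values per spot are the processed signal of Agilent Feature Extraction 10.7.3.1, background-subtracted and not normalized between arrays, per the file headers, which name build rn4. The deposited flags mark spots as well above background, saturated or outliers, and no spot was saturated. No further processing by the authors is recorded in the labels or headers. Depth has no meaning for arrays, and their number limits the precision.

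Outlier spots were left out, spots of a probe averaged, and each array's 75th percentile over spots subtracted on the log2 scale. RefSeq accessions without versions were matched to RefSeq gene names of assembly GRCr8. limma 3.58.1 in R 4.3.3 fitted 4 group means over 8 arrays (4 residual degrees of freedom, prior 3.56), with 2-sided p-values and Benjamini-Hochberg adjustment at 0.05 over 25078 features in each comparison. The fit was tested on simulated data. Named genes were the 5 highest and 5 lowest differences among called genes without overlap in each comparison, plus 13 fixed genes in smoke against naive, 1 of which was not kept. Other genes were named after their values were seen, and single results of some genes are not reported here. The members and gene lists were chosen with earlier results of these data known. Alternatives tried were the normexp correction of background (offset 50), quantile and cyclic loess normalization, scaling to 7 E1A control probes, other probe filters and summaries, a trended prior, a block for the replicate number, and fits without 1 array, in which the lone sample of a group is assumed to vary as the others do.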

Additional observations from a re-analysis of the deposited data

How the results depend on the processing

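Counts of called potassium channel genes depended most on the scaling and the background correction. Smoke against naive gave 51 calls with normexp (2 higher, 49 lower) and 48 after spike-in scaling (48 higher, 0 lower), against 14. After quantile normalization 5 were higher and 7 lower, and after cyclic loess 9 and 7. EV against smoke gave 47 with each (44 higher and 3 lower with normexp, 1 and 46 after spike-in scaling), and MSC against smoke 53 with each (49 and 4, and 1 and 52). EV against MSC gave 32 with normexp, 24 after spike-in scaling, 1 after cyclic loess, 0 with no filter on dim probes, and 5 with probes detected on all 8 arrays or with the trended prior. MSC against naive gave 6 after spike-in scaling. Spike-in scaling moves every feature of a comparison by the same amount. The cause of the other changes was not tested. Counts under the alternatives, here and elsewhere, stand without the share of all features called under the same setting. They show dependence on the processing and are not read as results about these genes.

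With 1 array left out at a time, calls in smoke against naive ranged from 5 to 19. They ranged from 4 to 17 for EV and from 16 to 31 for MSC, each set against smoke, and from 0 to 5 for EV set against MSC. The fewest came without smoke replicate 1 in the first and second of these and without smoke replicate 2 in the third. Calls in smoke against naive fell to 9 without naive replicate 2, and those in EV against smoke to 5 without EV replicate 2. Without both arrays with heart muscle signal, an alternative chosen after seeing the data, MSC against smoke gave 20 calls and EV against MSC 0.

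Signs turned in single genes. In smoke against naive, normexp gave -0.54 for Kcnj13, -1.88 for Kcnj2 and -1.56 for Kcnmb1. Spike-in scaling gave 0.42 for Kcnk12, 0.49 for Kcnb2, 1.56 for Kcna3, 1.29 for Kcnj15, 1.63 for Kcnk2, 2.77 for Kcnk3 and 2.60 for Kcnn4. Kcnk3 was at 0.60 after quantile normalization and 0.56 after cyclic loess, and at -0.37 to 0.019 with arrays left out. Kcnj2 ranged from -0.62 to 1.02 with arrays left out, and Kcnn4 was at 0.25 with the mean of its probes. In EV against smoke, spike-in scaling gave -0.042 for Kcng3 and -0.16 for Kcne1. In MSC against smoke it gave -0.069 for Kcne5, -0.12 for Kcne1 and -0.19 for Kcnj11, and normexp gave 0.96 for Kcnj13, 2.18 for Kcnd1 and 0.40 for Kcne3.

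Replicate numbers are shared between groups, but deviations of same-numbered arrays correlated at -0.15 to 0.14 over the 6 pairs of groups, so the samples share only a number. With the replicate block the count was 15 in smoke against naive. Set against smoke it was 10 for EV and 29 for MSC, EV against MSC gave 1, and both treated groups gave 0 against naive. Genes near background on the MSC and naive arrays have the least certain levels.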

Other observations

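Markers of the other cell types that lung tissue can hold were read beside the channel genes, with the percentile scale for all counts. In smoke against naive, 2 of 8 smooth muscle markers rose and 1 fell, 3 of 8 endothelial markers rose and 2 fell, 4 of 8 alveolar epithelium markers fell, 2 of 4 ciliated airway markers fell, 1 of 6 T cell markers rose and 2 fell, 3 of 6 macrophage markers rose, and 1 of 3 neuronal markers fell. None of the 6 heart muscle markers passed there. In MSC against smoke 5 of the 6 heart muscle markers rose, and in EV against smoke 1 did, where 42.7% and 29.4% of all features were called higher. Over all features 12.4% were called higher and 35% lower in smoke against naive, 47.4% in all, and these lists other than heart muscle had 33.3% to 62.5% called. The part of these markers in the values of the channel genes was not tested.

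Some potassium channel probes that failed the detection filter were well above background on a single array. On MSC replicate 2, the array with the most heart muscle signal, these were probes of Kcna4, Kcnk18, Kcnn2 and Kcnq5. Kcna4, the transient outward channel known from heart, had a level of -0.09 there. On smoke replicate 1, the array with the lowest limit of detection, probes of 10 genes were so marked, among them Kcna5, Kcnc4, Kcnj1 and Kcnt2. These values stand in no comparison.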
